A study of Homo sapiens with 12 samples.

Results

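The 49 genes described here make or assemble ribosomes, or supply that process with nucleotides. They were listed by name for their known function, with no threshold on a measured value, though earlier results of these data were known when they were chosen. Of the 49, 43 had a probe set that carries their symbol alone, and all 43 passed the limit on low signal, which asked for 3 or more arrays at a log2 value of 5 or higher. They are 43 of 14080 genes tested, which in turn come from 19775 genes with a probe set of their own. NOP56, DKC1 and BOP1 were not used because their probe sets carry several symbols, and GNL3, DDX18 and EBNA1BP2 were named on no probe set of the annotation.

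The cells were U937, a human leukaemia line of monocytic character, profiled on Affymetrix arrays. All had been transduced, either with a vector that expresses EVI1 or with the same vector left empty, and all were growing logarithmically when treatment began. The treatment was 1 µM all-trans retinoic acid (ATRA), a ligand of nuclear retinoic acid receptors, or an equal amount of its solvent DMSO, for 24 h. This gave 4 groups, called vector DMSO, EVI1 DMSO, vector ATRA and EVI1 ATRA here, with 3 arrays each, numbered 1 to 3, and the comparisons ask how ATRA and EVI1, a zinc finger oncoprotein of myeloid leukaemia, act on transcript levels alone and together.

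Ribosome production starts in the nucleolus, where RNA polymerase I transcribes a long precursor RNA and RNA polymerase III, outside it, makes the 5S RNA. Small nucleolar ribonucleoproteins (snoRNPs) guide methylation (box C/D) and pseudouridylation (box H/ACA) of the precursor, while the small subunit processome and a succession of assembly factors cut and fold it into the 40S and 60S subunits. The pathway is among the costliest of a growing cell, is a classical target of the transcription factor MYC, and is commonly lowered when blood cells stop dividing and mature.

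The array medians lay between 5.29 and 5.35, and arrays of one group correlated with r from 0.987 to 0.995 over all probe sets. All 9 measured markers of the U937 identity list, such as SPI1 and LYZ, stood at 5.59 or above on every array. Of the lists for other lineages, 3 of 8 T and NK markers, 3 of 5 B cell markers, 1 of 3 erythroid markers and 4 of 8 epithelial and fibroblast markers were at 5 or above on all arrays, the highest at 8.33. The 5 probe sets of MECOM, the gene that encodes EVI1, lay between 2.61 and 3.60 in every group, so these arrays do not check the vector. Whether other cells or the vector label had a part in the results below was not tested.

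Transcripts of ribosome biogenesis genes were lower with ATRA than with DMSO in both cell types. In EVI1 cells, 30 of the 43 fell by limma's test at an adjusted p under 0.05, where 7.66% of all genes tested fell, and none rose, where 7.45% of all genes did. The median log2 difference of the 43 was -0.67, beside -0.02 over all genes tested. In vector cells the median was -0.42, beside 0.00 over all genes, and 3 members fell, POLR3G, HEATR1 and NIP7, where 1.52% of all genes fell. All 43 differences were below 0 in vector cells, where 50.3% of all genes had a difference below 0. In EVI1 cells 42 were below 0, beside 53.8% of all genes, and NOP10 was at 0.00.

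The arrays of one number deviated together from their group means, so that the number behaves as a pairing of arrays across groups. With the number as a block in the limma fit, 31 members fell in vector cells and 41 in EVI1 cells, where 10.1% and 19.4% of all genes fell. The 31 were all among the 41. The members that fell in neither cell type with the block were NPM1 and NOP10, and neither of them fell with the block in the comparisons of EVI1 with vector. At each number separately the members' median ATRA difference was -0.29, -0.46 and -0.43 in vector cells and -0.52, -0.69 and -0.80 in EVI1 cells. ATRA was lower than DMSO at all 3 numbers for 42 members in vector cells, beside 27.4% of all genes, and for 42 in EVI1 cells, beside 31.1%. The exceptions were POLR1A in vector cells and NOP10 in EVI1 cells.

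These counts rest on few arrays. Without the block, leaving out EVI1 DMSO array 1 or 2 left 13 or 18 members fallen in EVI1 cells. Leaving out EVI1 ATRA array 2 or 3 left 14 or 12. Over all 14080 genes these runs left 526 or 513 and 532 or 421 fallen, against 1078 with all arrays. Leaving out EVI1 ATRA array 1 raised the members' count to 39, and that over all genes to 1795. In vector cells the members' count was 0 without vector DMSO array 1 or 2 or vector ATRA array 2 or 3. It was 1 without vector DMSO array 3 or vector ATRA array 1, and 5 or 7 without EVI1 ATRA array 1 or 3. In the same order, falls over all genes there were 40, 63, 43, 58, 120, 112, 281 and 235, against 214 with all arrays. Leaving out all 4 arrays of number 2 ended every call of a member in both cell types. That run left 0 falls over all genes in vector cells and 4 in EVI1 cells. Without number 3 the members' counts were 1 in vector and 4 in EVI1 cells, beside 67 and 220 over all genes. The blocked counts of 31 and 41 use all arrays. In such bulk RNA, fewer cells of a type and less of a transcript per cell cannot be told apart, and values scaled to the other transcripts of an array do not give RNA per cell.

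The level of the members followed both the treatment and the array number. Set against the vector DMSO mean of each gene, the median member stood at 0.10, -0.07 and -0.06 on the 3 vector DMSO arrays and at -0.21, -0.54 and -0.48 on the vector ATRA arrays. It stood at 0.08, -0.23 and -0.24 on the EVI1 DMSO arrays and at -0.47, -0.92 and -1.11 on the EVI1 ATRA arrays. Array 1 was the highest in each group, and arrays 2 and 3 of EVI1 ATRA lay below the other 10. On EVI1 ATRA array 1 all 43 members were below their vector DMSO mean, and on arrays 2 and 3 all but NOP10 were.

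**Figure D1:**
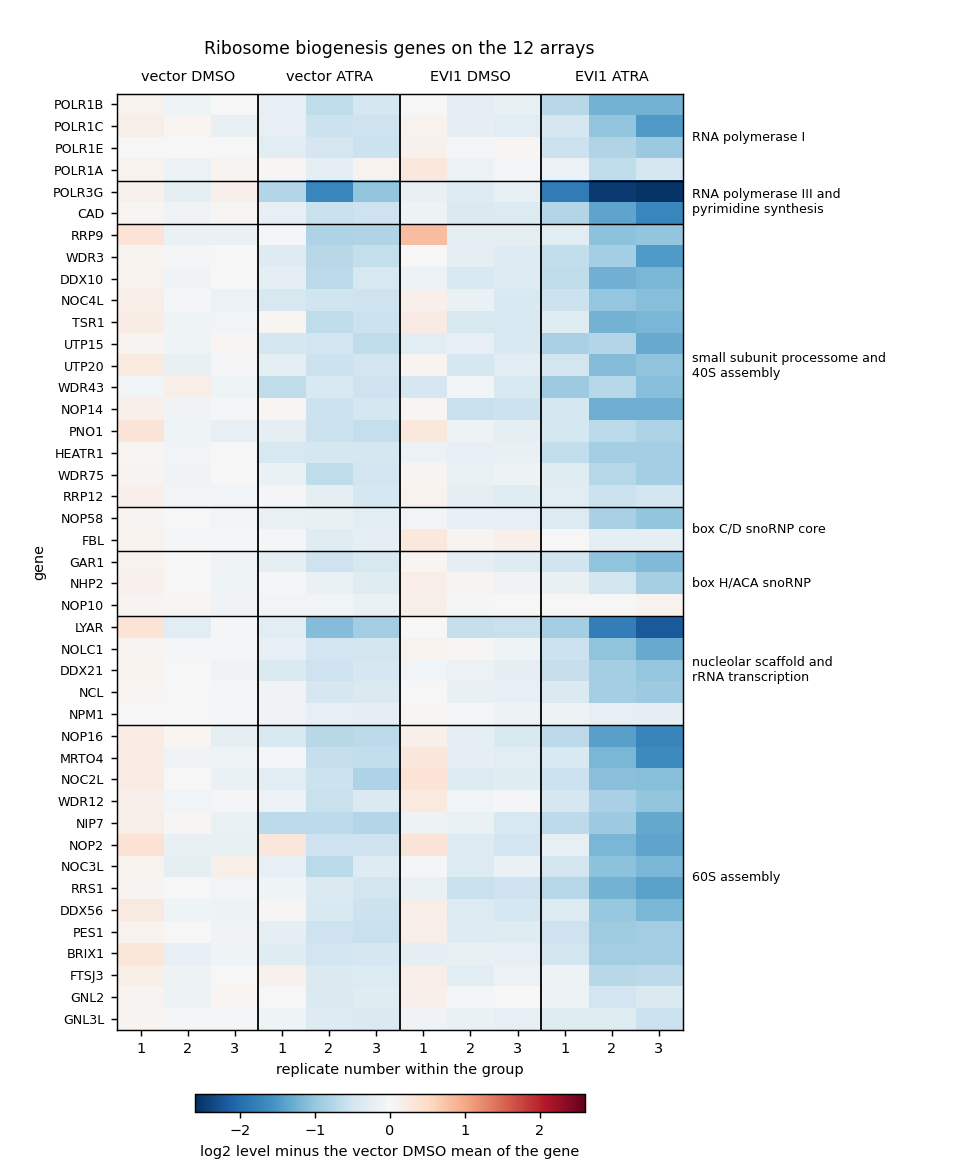
Log2 level of each of the 43 members on each of the 12 arrays, as the difference from the gene's mean over the 3 vector DMSO arrays, with members in rows by role and arrays in columns by group and number. Blue marks a lower and red a higher level; the EVI1 ATRA columns are the bluest, POLR3G reaches -2.55 there, and NOP10 and NPM1 stay near 0.

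POLR3G showed the largest difference of the 43 in both ATRA comparisons. It encodes a subunit of RNA polymerase III that is typical of undifferentiated and dividing cells. Its log2 values were 8.06, 7.70 and 8.09 in vector DMSO, 7.18, 6.26 and 6.93 in vector ATRA, 7.76, 7.61 and 7.74 in EVI1 DMSO and 6.14, 5.46 and 5.40 in EVI1 ATRA. In each cell type every ATRA array lay below every DMSO array, and the EVI1 ATRA arrays were below all others. It fell by 1.16 ± 0.24 (SE, n = 3 arrays a group) in vector cells, a 2.23-fold fall (limma adjusted p = 0.0239), and its log2 difference was -2.04 ± 0.24 in EVI1 cells, a 4.10-fold fall (limma adjusted p = 0.000879). The other 2 probe sets named POLR3G reached 5 on no array, so the value rests on 1 probe set.

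POLR3GL encodes the paralogous subunit that takes the same place in the enzyme of most mature cells, and it moved the opposite way. Its values were 9.53, 9.70 and 9.74 in vector DMSO, 9.97, 10.30 and 10.14 in vector ATRA, 9.49, 9.85 and 9.86 in EVI1 DMSO and 10.16, 10.47 and 10.39 in EVI1 ATRA. All ATRA arrays were above all DMSO arrays of the same cells. It rose by 0.61 ± 0.14 in EVI1 cells (limma adjusted p = 0.0125), and its difference of 0.48 ± 0.14 in vector cells was called with the replicate block (limma adjusted p = 0.00168) and not without it (0.0813). Each probe set has its own scale, so the amounts of the paralogues cannot be compared with each other from these values.

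CAD, the enzyme of the first steps of pyrimidine synthesis, read 10.15, 10.01 and 10.13 in vector DMSO, 9.88, 9.52 and 9.56 in vector ATRA, 9.97, 9.72 and 9.75 in EVI1 DMSO and 9.34, 8.72 and 8.41 in EVI1 ATRA. The ATRA and DMSO arrays did not overlap within either cell type. CAD fell by 0.99 ± 0.20 in EVI1 cells (1.99-fold, limma adjusted p = 0.00722). The difference in vector cells was -0.44 ± 0.20 (limma adjusted p = 0.266, and 0.0448 with the replicate block).

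Among the RNA polymerase I subunits, POLR1B, POLR1C and POLR1E fell in EVI1 cells and POLR1A, the largest subunit, was called there with the block alone. POLR1B, the second largest subunit, had values of 10.47, 10.26 and 10.38 in vector DMSO, 10.15, 9.71 and 9.91 in vector ATRA, 10.38, 10.13 and 10.18 in EVI1 DMSO and 9.65, 9.14 and 9.14 in EVI1 ATRA. Its 3 EVI1 ATRA values were the lowest of the 12, and it fell there by 0.92 ± 0.16 (limma adjusted p = 0.00349). POLR1C, which RNA polymerases I and III share, had values of 10.62, 10.52 and 10.29, then 10.27, 9.92 and 9.94, then 10.56, 10.22 and 10.19, then 10.05, 9.45 and 9.01 in the same order of groups. Its ATRA and DMSO arrays did not overlap in either cell type, and it fell by 0.82 ± 0.22 in EVI1 cells (limma adjusted p = 0.0280). POLR1E, the subunit PAF53, fell by 0.80 ± 0.12 there (limma adjusted p = 0.00167). In vector cells these 3 differences lay between -0.45 and -0.43 and were called with the block. The chosen POLR1A probe set stood at -0.04 ± 0.16 there (limma adjusted p = 0.776 with the block). The other POLR1A probe sets, at means of 7.47 and 7.03, read -0.16 and -0.41 in vector cells, so its smaller difference depends on the probe set.

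The small subunit processome and later 40S factors numbered 13, of which 9 fell in EVI1 cells and all 13 did with the block. Their differences there ran from -0.90 for RRP9, the U3 snoRNP protein, to -0.29 for RRP12, a factor of 40S export, neither of which was called without the block. Dimmer probe sets of RRP12, at means of 6.12, 5.37, 5.15 and 5.10, read 0.26, 0.07, -0.02 and -0.09 in EVI1 cells. HEATR1, a large scaffold of the complex that first binds the precursor RNA, read 10.65, 10.53 and 10.62 in vector DMSO, 10.19, 10.14 and 10.15 in vector ATRA, 10.44, 10.38 and 10.40 in EVI1 DMSO and 9.97, 9.72 and 9.72 in EVI1 ATRA. The 4 groups had separate ranges, from vector DMSO at the top through EVI1 DMSO and vector ATRA to EVI1 ATRA. HEATR1 fell by 0.44 ± 0.10 in vector cells (limma adjusted p = 0.0296) and by 0.60 ± 0.10 in EVI1 cells (limma adjusted p = 0.00255), and 2 other probe sets of the gene read -0.42 and -0.30 in vector and -0.60 and -0.40 in EVI1 cells.

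WDR43 and UTP15, partners of HEATR1 in the same subcomplex, fell in EVI1 cells, WDR43 by 0.63 ± 0.14 (limma adjusted p = 0.0112). NOP14, which joins the processome together with NOC4L, was high on array 1 of each group, with values of 9.95, 9.72 and 9.79 in vector DMSO, 9.87, 9.26 and 9.36 in vector ATRA, 9.86, 9.24 and 9.26 in EVI1 DMSO and 9.37, 8.55 and 8.56 in EVI1 ATRA. Its ATRA and DMSO arrays overlapped in both cell types. Its difference in EVI1 cells was -0.63 ± 0.24 (limma adjusted p = 0.105, and 0.00164 with the replicate block). The remaining members that fell in EVI1 cells were WDR75, WDR3, UTP20, NOC4L and DDX10 of the processome and PNO1 of the later 40S precursor, and TSR1, which also acts on that precursor, was called with the block.

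Of the box C/D core, NOP58 fell in EVI1 cells by 0.57 ± 0.15 (limma adjusted p = 0.0221), while fibrillarin (FBL), the methyltransferase, read 12.90, 12.75 and 12.78 in vector DMSO, 12.77, 12.49 and 12.58 in vector ATRA, 13.09, 12.89 and 12.94 in EVI1 DMSO and 12.80, 12.55 and 12.55 in EVI1 ATRA. FBL differed by -0.34 ± 0.11 in EVI1 cells, without overlap of the groups (limma adjusted p = 0.0624, and 0.00220 with the replicate block). Of the box H/ACA proteins, GAR1 fell by 0.73 ± 0.17 and NHP2 by 0.56 ± 0.16 in EVI1 cells (limma adjusted p = 0.0136 and 0.0330).

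NOP10, the smallest protein of the same H/ACA particle, read 13.15, 13.12 and 12.99 in vector DMSO, 13.01, 13.01 and 12.91 in vector ATRA, 13.23, 13.05 and 13.07 in EVI1 DMSO and 13.08, 13.10 and 13.17 in EVI1 ATRA. The groups overlapped in both cell types. Its ATRA differences were -0.11 ± 0.09 in vector and 0.00 ± 0.09 in EVI1 cells (limma adjusted p = 0.624 and 1). Of the 43 members it had the smallest change in EVI1 cells.

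Among the nucleolar scaffold and rRNA transcription genes, 4 of 5 fell in EVI1 cells, and the exception was nucleophosmin (NPM1). LYAR, a nucleolar zinc finger protein of proliferating cells, had the second largest difference of all members in both ATRA comparisons. It read 11.76, 11.11 and 11.36 in vector DMSO, 11.11, 10.29 and 10.51 in vector ATRA, 11.42, 10.81 and 10.84 in EVI1 DMSO and 10.53, 9.62 and 9.22 in EVI1 ATRA. The groups met at 11.11 in vector cells and did not overlap in EVI1 cells. LYAR fell by 1.23 ± 0.32 in EVI1 cells (2.35-fold, limma adjusted p = 0.0235), and its difference in vector cells was -0.77 ± 0.32 (limma adjusted p = 0.229, and 0.00533 with the replicate block).

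NOLC1, a chaperone of snoRNPs, read 12.68, 12.59 and 12.58 in vector DMSO, 12.41, 12.12 and 12.14 in vector ATRA, 12.70, 12.64 and 12.51 in EVI1 DMSO and 12.05, 11.57 and 11.30 in EVI1 ATRA. The 6 DMSO arrays were alike and the 3 EVI1 ATRA arrays were the lowest. NOLC1 fell by 0.98 ± 0.16 in EVI1 cells (1.97-fold, limma adjusted p = 0.00331), where its other 2 probe sets read -1.16 and -0.95. DDX21, a helicase that supports rRNA transcription, and nucleolin (NCL) fell there by 0.67 ± 0.12 and 0.59 ± 0.15 (limma adjusted p = 0.00375 and 0.0222).

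NPM1, an abundant nucleolar chaperone, read 14.02, 14.02 and 13.97 in vector DMSO, 13.91, 13.78 and 13.77 in vector ATRA, 14.03, 13.98 and 13.87 in EVI1 DMSO and 13.87, 13.79 and 13.75 in EVI1 ATRA. The groups were separate in vector cells and met at 13.87 in EVI1 cells. Its differences were -0.18 ± 0.09 and -0.16 ± 0.09 (limma adjusted p = 0.321 and 0.285). This probe set is near the upper end of the array's range, whose highest values were 14.74 to 14.79, and the dimmer of the other 2 NPM1 probe sets, at a mean of 12.27, read -0.47 in vector and -0.49 in EVI1 cells.

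**Figure D2:**
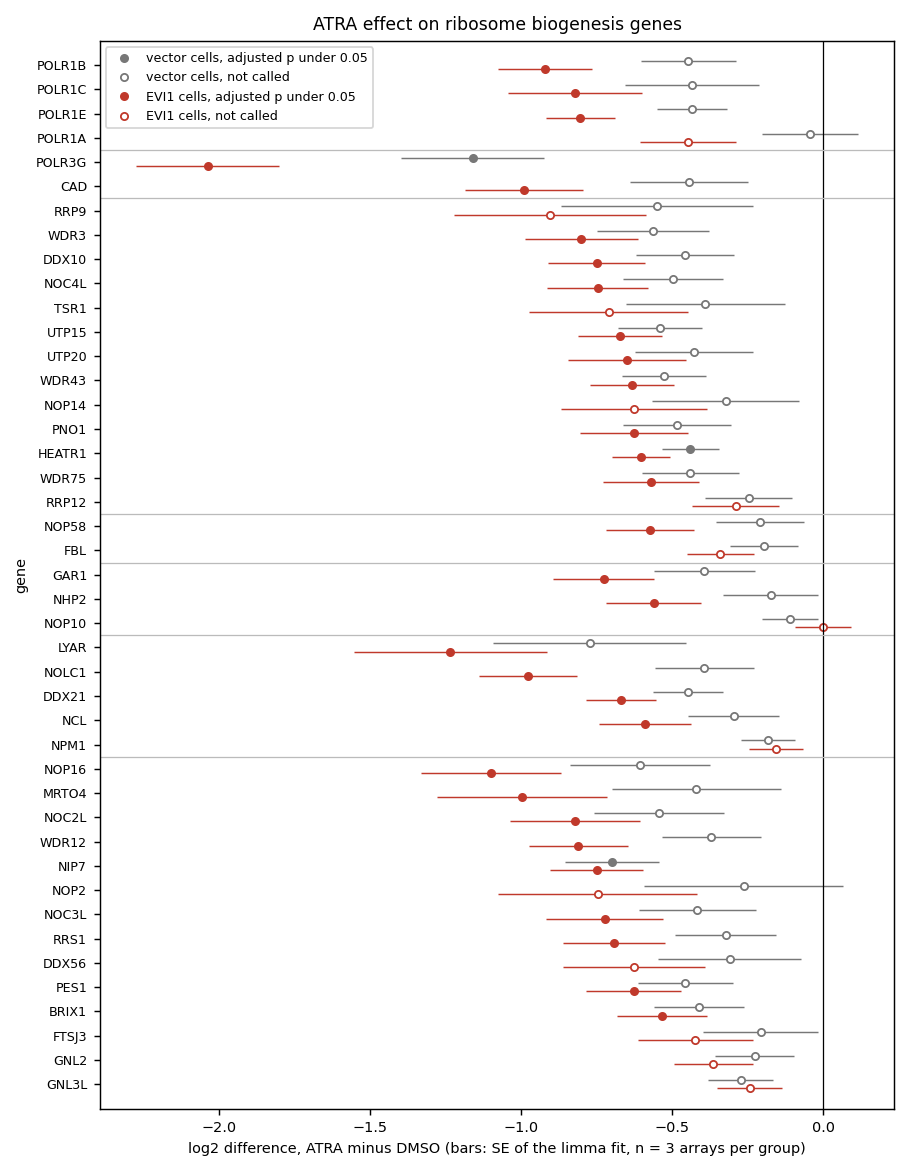
ATRA minus DMSO log2 difference of the 43 members, grouped by role, in vector cells and in EVI1 cells; bars are the limma SE with 3 arrays a group. The EVI1 points lie to the left of the vector points for 40 members, POLR3G is lowest in both, at -1.16 and -2.04, and NOP10 is at 0.00 in EVI1 cells.

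The 60S assembly factors numbered 14, of which 9 fell in EVI1 cells and all 14 did with the block. NOP16, a nucleolar protein of the early 60S precursor, read 12.02, 11.87 and 11.59 in vector DMSO, 11.42, 11.10 and 11.14 in vector ATRA, 11.95, 11.59 and 11.44 in EVI1 DMSO and 11.14, 10.42 and 10.12 in EVI1 ATRA. The groups did not overlap in either cell type. NOP16 fell by 1.10 ± 0.23 in EVI1 cells (2.14-fold, limma adjusted p = 0.00946), and its difference in vector cells was -0.61 ± 0.23 (limma adjusted p = 0.190, and 0.00822 with the replicate block). A second NOP16 probe set read -1.07 in EVI1 cells, and 2 dim ones, at means of 5.66 and 5.43, read -0.11 and 0.04.

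NIP7, a processing factor for the 60S precursor, fell in both cell types. It read 10.63, 10.51 and 10.31 in vector DMSO, 9.81, 9.81 and 9.73 in vector ATRA, 10.35, 10.32 and 10.06 in EVI1 DMSO and 9.80, 9.53 and 9.15 in EVI1 ATRA. No ATRA array reached the DMSO range of its cells. NIP7 fell by 0.70 ± 0.16 in vector cells and by 0.75 ± 0.16 in EVI1 cells (limma adjusted p = 0.0321 and 0.00888).

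MRTO4, which holds the place of the stalk protein P0 on the precursor, read 11.17, 10.88 and 10.86 in vector DMSO, 10.94, 10.38 and 10.33 in vector ATRA, 11.26, 10.73 and 10.68 in EVI1 DMSO and 10.57, 9.79 and 9.32 in EVI1 ATRA. The groups overlapped in vector cells, where array 1 with ATRA was above arrays 2 and 3 with DMSO, and not in EVI1 cells. MRTO4 fell by 1.00 ± 0.28 in EVI1 cells (limma adjusted p = 0.0335). RRS1, which helps to seat the 5S particle, fell there by 0.69 ± 0.17, and WDR12 and PES1, partners in the PeBoW complex, by 0.81 ± 0.16 and 0.63 ± 0.16 (limma adjusted p = 0.0178, 0.00764 and 0.0205). NOC2L, NOC3L and BRIX1 fell as well, and the members called with the block alone were the rRNA methyltransferases NOP2 and FTSJ3, the GTPases GNL2 and GNL3L and the helicase DDX56.

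Of the 30 members that fell in EVI1 cells, 26 did so by at least 1.5-fold and 3 by at least 2-fold. The 3 were POLR3G, LYAR and NOP16. How many of all genes tested fell by these folds was not counted, so the 2 counts only describe the members. All 3 arrays with ATRA lay below all 3 with DMSO for 34 members in EVI1 cells, beside 14.5% of all genes, and for 28 in vector cells, beside 11.4%. Beyond the chosen probe sets, 39 further probe sets of 21 members passed the signal limit. Of these, 35 read below 0 in vector cells, with a median of -0.41, and 36 in EVI1 cells, with a median of -0.44.

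**Figure D3:**
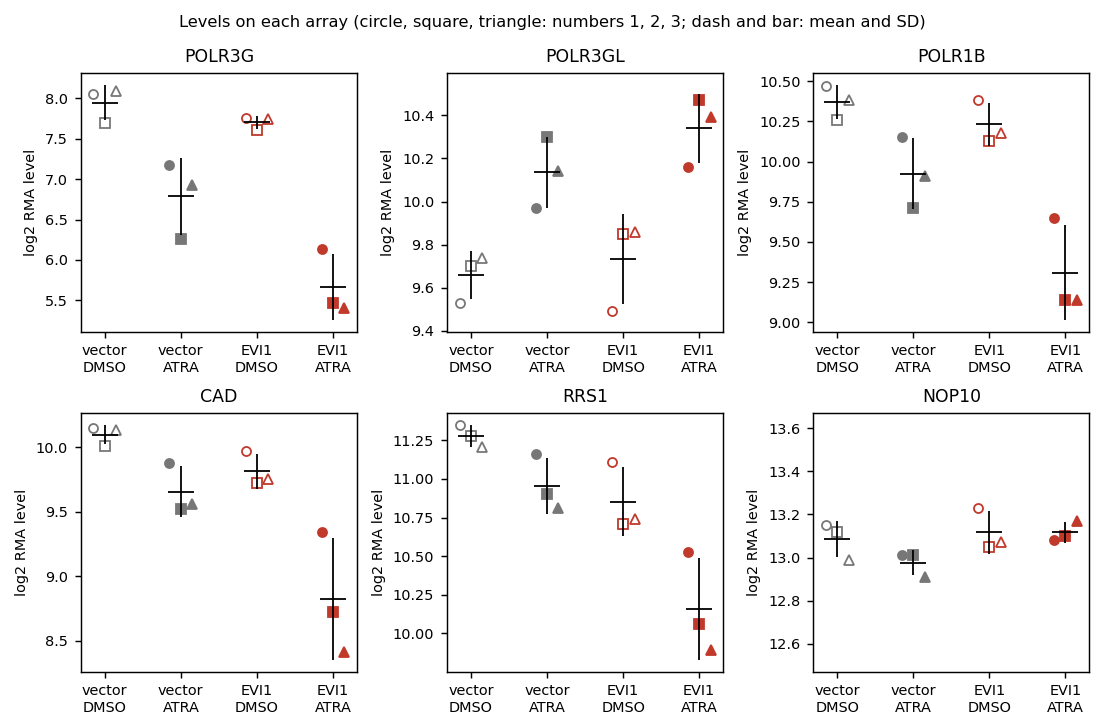
Log2 values of POLR3G, POLR3GL, POLR1B, CAD, RRS1 and NOP10 on each of the 12 arrays, by group, with the group mean as a dash and the SD as a bar; each panel has its own axis. POLR3G, POLR1B, CAD and RRS1 are lowest in EVI1 ATRA, POLR3GL has its highest mean there, and NOP10 stays between 12.91 and 13.23.

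Under DMSO no member was called between EVI1 and vector cells. None fell or rose by limma's test at an adjusted p under 0.05, where 0.682% of all genes fell and 0.533% rose. At an unadjusted p under 0.05 there was 1 lower member, RRS1, and no higher one, beside 4.03% and 5.76% of all genes. With the block 2 members fell, RRS1 and WDR43, where 2.99% of all genes fell. At an unadjusted p under 0.05 in limma's test with the block, 10 members were lower and 1 higher. Of all 14080 genes, 3053 reached that p in either direction. The median difference was -0.16, beside 0.02 over all genes, and 34 members were below 0, beside 45.1% of all genes. The EVI1 arrays lay wholly below the vector arrays for 6 members, CAD, HEATR1, UTP15, DDX10, RRS1 and GNL3L, beside 6.35% of all genes.

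RRS1 read 11.35, 11.28 and 11.21 in vector DMSO, 11.16, 10.90 and 10.81 in vector ATRA, 11.11, 10.71 and 10.74 in EVI1 DMSO and 10.53, 10.06 and 9.89 in EVI1 ATRA. The 3 vector DMSO arrays were the highest and the 3 EVI1 ATRA arrays the lowest. The EVI1 difference under DMSO was -0.43 ± 0.17 (limma adjusted p = 0.375, and 0.0213 with the replicate block). For LYAR it was -0.39 ± 0.32 and for NOP14 -0.37 ± 0.24, neither of them called with the block (limma adjusted p = 0.153 and 0.0791).

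Under ATRA the EVI1 cells were lower than the vector cells for more of the members. Of the 43, 4 fell, POLR3G, CAD, POLR1B and RRS1, where 2.33% of all genes fell, and with the block 34 fell, where 12.3% of all genes did. The median difference was -0.40, beside -0.01 over all genes, and 41 members were below 0, beside 52.0% of all genes. At each number the median was -0.26, -0.41 and -0.58. POLR3G was lower in EVI1 cells by a log2 difference of -1.12 ± 0.24 (2.18-fold, limma adjusted p = 0.0194), CAD of -0.83 ± 0.20 (1.78-fold, limma adjusted p = 0.0307) and RRS1 of -0.80 ± 0.17 (1.74-fold, limma adjusted p = 0.0193). POLR1B differed by -0.61 ± 0.16 (1.53-fold, limma adjusted p = 0.0422). The other POLR1B probe sets, at means of 8.76, 8.10 and 8.07, read only -0.22, -0.09 and -0.06, so this call rests on 1 probe set. LYAR differed by -0.85 ± 0.32 (limma adjusted p = 0.150, and 0.00305 with the replicate block).

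Without the block the count of 4 was 27 without EVI1 ATRA array 1, 0 without EVI1 ATRA array 2 or 3 or vector ATRA array 1, and 1 without vector ATRA array 2 or 3. It was 0 when the 2 ATRA groups were fitted alone. Over all genes the falls in these runs were 1009, then 150, 124 and 168, then 173 and 142, and last 116. With all arrays and groups fitted they were 328. The groups were separate for 11 members with EVI1 lower, beside 9.03% of all genes. FBL and NOP10 were the members at or above 0, with 0.02 ± 0.11 and 0.14 ± 0.09 (limma adjusted p = 0.956 and 0.443). For NOP10 the groups were separate with EVI1 higher, at 13.08 to 13.17 in EVI1 ATRA and 12.91 to 13.01 in vector ATRA. This comparison shares its EVI1 ATRA arrays with the ATRA comparison in EVI1 cells.

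Whether the ATRA effect differs between EVI1 and vector cells was tested directly by the interaction, the difference of both ATRA differences. No member passed limma's test, at a smallest adjusted p of 0.998, nor did any of the 14080 genes (0.0%), and with the block the smallest adjusted p was 0.346. At an unadjusted p under 0.05 there were 3 members with a larger fall in EVI1 cells, POLR3G, NOLC1 and POLR1E, and 177 lower (1.26%) and 185 higher (1.31%) genes in all. With the block in limma's test, 17 members were lower and 0 higher at that unadjusted p. Of all 14080 genes, 1846 reached it in either direction. The median interaction of the members was -0.29, beside -0.02 over all genes, and 40 of 43 were below 0, beside 54.5% of all genes. By number it was -0.22, -0.26 and -0.35. For POLR3G the interaction was -0.88 ± 0.34, for NOLC1 -0.58 ± 0.23 and for MRTO4 -0.58 ± 0.40. The larger fall in EVI1 cells is therefore a direction shared by the chosen probe sets of most members and not a called difference for any of them. The 39 further probe sets of 21 members had close medians, -0.41 in vector and -0.44 in EVI1 cells. With the mean of all probe sets of a gene, 38 of 42 members had an interaction below 0, at a median of -0.22.

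Genes of the same pathway outside the 43 were counted in further lists. Of 74 other ribosome assembly factors, 29 fell and none rose with ATRA in EVI1 cells, and 65 fell with the block. Their median was -0.50 in EVI1 and -0.28 in vector cells, where 0 were called, 20 were lower at an unadjusted p under 0.05 in limma's test, and 44 fell with the block. Over all 14080 genes, 1174 were lower and 1280 higher in vector cells at that unadjusted p. NLE1, RPF2, WDR36 and RRP1B had the smallest adjusted p-values in EVI1 cells, with falls of 0.77 ± 0.13, 0.64 ± 0.12, 0.61 ± 0.12 and 0.76 ± 0.15 (limma adjusted p = 0.00385, 0.00453, 0.00629 and 0.00666).

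The polymerases themselves were more mixed. Of 11 other RNA polymerase I genes, POLR1G, a subunit also known as PAF49 and partner of POLR1E, fell in both cell types, by 0.80 ± 0.20 in vector and 1.18 ± 0.20 in EVI1 cells (limma adjusted p = 0.0458 and 0.00325), and no other was called. With the block 4 fell in EVI1 cells and 1 in vector cells. Of 20 other RNA polymerase III genes, POLR3E, POLR3D and GTF3C4 fell in EVI1 cells, by 0.78 ± 0.17, 0.47 ± 0.13 and 0.54 ± 0.16 (limma adjusted p = 0.00962, 0.0308 and 0.0415), and POLR3GL rose. None was called in vector cells, where 2 were lower and 1 higher at an unadjusted p under 0.05 in limma's test. Over all 14080 genes, 1174 were lower and 1280 higher there. With the block the RNA polymerase III list had 8 falls in EVI1 cells and 4 in vector cells, with 1 rise in each. Of 12 exosome genes, whose products trim the precursor, EXOSC7, EXOSC8, EXOSC5 and EXOSC9 fell in EVI1 cells, by 0.63, 0.54, 0.53 and 0.49 (limma adjusted p = 0.0282, 0.0385, 0.0460 and 0.0482), and none in vector cells. There 1 was lower at an unadjusted p under 0.05 in limma's test and 3 fell with the block, and 8 did in EVI1 cells.

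Ribosomal proteins are the structural parts that the assembly factors put in place. Of 52 tested, none was called in either ATRA comparison, with or without the block, and none reached an unadjusted p under 0.05 without it in limma's test. Their medians were 0.02 in vector and 0.03 in EVI1 cells. The smallest adjusted p in EVI1 cells was that of RPS9, at 0.19 ± 0.10 (limma adjusted p = 0.245). Their probe sets had a median level of 14.17 and a highest of 14.77, close to the array maxima of 14.74 to 14.79, and how far that ceiling limits their differences was not tested.

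Nucleotide synthesis, the supply line in which CAD acts, had 10 of 14 genes fallen in EVI1 cells and 14 with the block, at a median of -0.63. In vector cells none was called, 9 were lower at an unadjusted p under 0.05 in limma's test, 11 fell with the block, and the median was -0.33. PPAT and PFAS, enzymes of purine synthesis, fell by 1.06 ± 0.19 and 0.90 ± 0.17 in EVI1 cells, PRPS2, which makes the shared ribose precursor, by 0.77 ± 0.13, and GART by 0.61 ± 0.11 (limma adjusted p = 0.00507, 0.00657, 0.00348 and 0.00415).

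MYC itself read 12.36, 12.49 and 12.48 in vector DMSO, 11.67, 11.47 and 11.61 in vector ATRA, 12.43, 12.67 and 12.47 in EVI1 DMSO and 11.13, 10.82 and 10.22 in EVI1 ATRA. The ATRA arrays were below all DMSO arrays and the EVI1 ATRA arrays below all others. MYC fell by 0.86 ± 0.18 in vector cells and by 1.80 ± 0.18 in EVI1 cells (limma adjusted p = 0.0286 and 0.000465). MXI1, a MAX-binding antagonist of MYC, fell in both, by 0.55 ± 0.12 and 0.47 ± 0.12 (limma adjusted p = 0.0312 and 0.0228), and MNT, another antagonist, rose by 0.44 ± 0.11 in EVI1 cells (limma adjusted p = 0.0169).

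DNA replication genes, a measure of dividing cells, had a median of -0.60 with 6 of 14 fallen in EVI1 cells, and -0.10 with none called in vector cells, where limma's test gave 0 also at an unadjusted p under 0.05. Blocked by number, 12 fell in EVI1 and 0 in vector cells. MCM2 and MCM4, subunits of the replicative helicase, fell by 0.79 ± 0.21 and 0.66 ± 0.18 in EVI1 cells (limma adjusted p = 0.0271 and 0.0300). Of the 9 U937 identity markers tested, 3 rose and 1 fell in EVI1 cells, where 7.45% and 7.66% of all genes did. Of the lists for other lineages, 1 of 4 B cell markers tested rose there and no other marker was called. What part these changes in MYC, replication and identity marker genes had in those of the ribosome biogenesis genes was not tested.

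**Figure D4:**
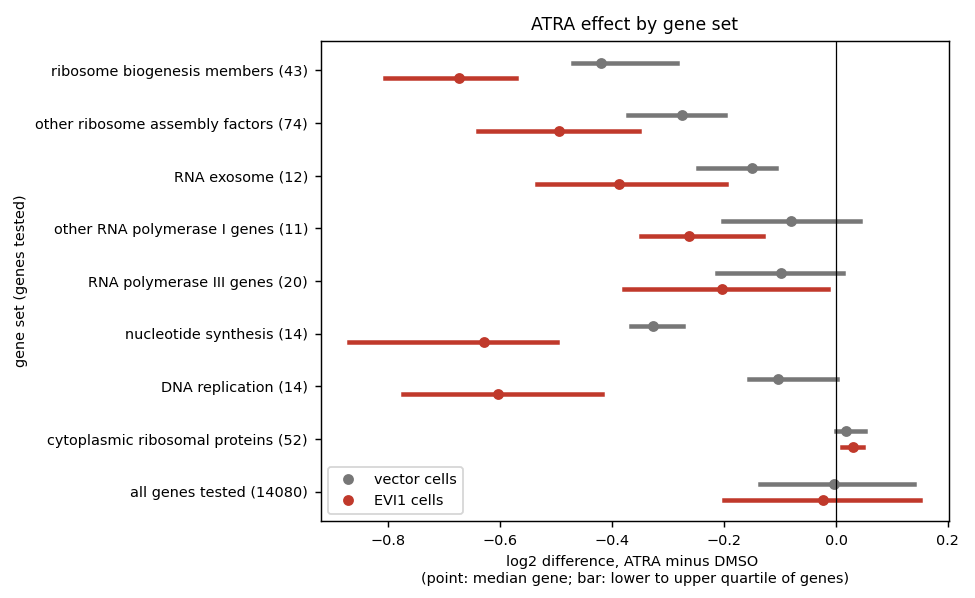
Median and quartiles of the ATRA minus DMSO log2 difference in vector and EVI1 cells for the 43 members, the related gene lists and all 14080 genes tested. The members have medians of -0.42 and -0.67, the other assembly factors -0.28 and -0.50, and the ribosomal proteins 0.02 and 0.03.

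Promoter windows from RefSeq (GRCh38.p14), 250 bases before to 50 after a transcript start, were listed for 37 of the 43 members and searched for CACGTG, the canonical E-box that MYC with MAX, and other factors, can bind. The motif reads the same on both strands. It was present for 15 of the 37 (40.5%), beside 12.2% of the 11235 tested genes with a window and 7.26% of all 35116 windows. The stretches below show it in capitals for LYAR, MRTO4, DDX21 and UTP20, which fell in EVI1 cells, and at both places in the window of NOP10, which did not. The motif begins 64 bases before the start of LYAR, 31 before that of DDX21, 10 before that of UTP20, 14 after that of MRTO4, and 170 and 11 before that of NOP10.
LYAR, chr4:4290053-4290112, minus strand: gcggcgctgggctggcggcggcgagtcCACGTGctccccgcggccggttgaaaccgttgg
DDX21, chr10:68956589-68956646, plus strand: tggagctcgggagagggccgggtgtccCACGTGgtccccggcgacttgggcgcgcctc
UTP20, chr12:101280068-101280104, plus strand: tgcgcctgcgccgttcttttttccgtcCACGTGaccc
MRTO4, chr1:19251807-19251836, plus strand: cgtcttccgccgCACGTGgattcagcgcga
NOP10, chr15:34343274-34343333, minus strand: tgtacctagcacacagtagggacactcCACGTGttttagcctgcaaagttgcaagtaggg
NOP10, chr15:34343137-34343174, minus strand: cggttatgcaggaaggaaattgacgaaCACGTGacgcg

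Members with and without the motif can be set side by side. In EVI1 cells 9 of the 15 members with CACGTG fell and 16 of the 22 without it. The median ATRA difference was -0.65 with and -0.69 without the motif in EVI1 cells, and -0.42 and -0.44 in vector cells. A match describes the letters of the window and no site in use, and these arrays hold no measurement of binding.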

How the data were processed

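The deposited values are log2 levels of 54675 probe sets on 12 arrays, which per the submitters' processing notes the authors made with RMA (robust multi-array average) and Affymetrix Expression Console 1.3. They were not rescaled. Probe sets with several symbols (1801) were left out, and for each of 19775 genes the probe set of highest mean was kept. Genes reaching 5 on at least 3 arrays (14080) were tested by limma's lmFit and eBayes (version 3.58.1, R 4.3.3; 4 group means, 8 residual degrees of freedom; 6 with the replicate block), with Benjamini-Hochberg adjustment over all 14080, and called at an adjusted p under 0.05. The fit without the block was tested on simulated data whose arrays varied independently, so that test does not cover the pairing by number or the blocked fit. The series describes the replicates as biological, but the labels do not name separate cultures, so p-values measure the spread between these samples.

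Array numbers come from the sample titles. Deviations from the group means correlated over all genes tested with r of 0.408 to 0.704 in all 18 same-number pairs, and with -0.56 to 0.164 in the 36 others. The deviations of the 3 arrays of a group sum to 0, so the 36 are not independent of the 18. From the r of the 18 pairs the number was taken as a pairing, and its fit is given beside the results it changes. Members and lists were chosen with earlier results of these data known. Values on every array are given for the 3 largest differences of each comparison, the brightest member of each role, and POLR3GL and MYC. POLR1B was added after its values were seen. Up to 4 genes of each other list were named, by smallest adjusted p in EVI1 cells. Alternatives changed the probe set rule, the filter, the scaling, the variance model, the threshold and the arrays used. Sequences come from RefSeq.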

Additional observations from a re-analysis of the deposited data

Results flagged for a closer look

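NHP2, a box H/ACA protein, had EVI1 against vector differences in opposite directions under the 2 agents at all 3 numbers. Under DMSO the difference was 0.05 (0.06, 0.06 and 0.03 at the 3 numbers), and under ATRA it was -0.34 (-0.16, -0.30 and -0.55). The direct test of that difference, limma's interaction, was -0.39 ± 0.22 (adjusted p = 0.998, and 0.346 with the replicate block), so it did not pass.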

How the results depend on the processing

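With the replicate block, members fallen numbered 31 in the vector ATRA comparison, 41 in the EVI1 ATRA comparison, 2 for EVI1 under DMSO and 34 for EVI1 under ATRA, against 3, 30, 0 and 4 without it; it ended no call of a member and gave 0 interaction calls. The mean of all probe sets of a gene left 42 members tested, and POLR3G dropped out below the signal limit. In vector cells the count was 6 with that mean, and 1 of the 3 earlier calls was kept. The count was 5 with a filter of 6, 5 with a fit of the compared groups alone, and 0 at an adjusted p under 0.01. It was 1 without both DMSO arrays of number 3, an alternative chosen after seeing the data. In the same order, falls over all genes were 205, 246, 253, 42 and 117. The genes tested numbered 12779 with the mean of probe sets and 11183 with the filter of 6. In EVI1 cells the members' count was 7 with the compared groups alone and 11 at an adjusted p under 0.01, beside 336 and 350 falls over all genes. For EVI1 under ATRA the members' count was 1 with the mean of probe sets, 8 with quantile normalization repeated and 8 with a trended robust eBayes. It was 0 with the compared groups alone, 0 at an adjusted p under 0.01 and 2 without the DMSO arrays of number 3. Falls over all genes in these runs were 310, 433, 372, 116, 96 and 239. The mean of probe sets moved the median in vector cells to -0.33 and the median interaction to -0.22. The causes of these changes were not tested.

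Leaving out 1 array, or all arrays of 1 number, gave counts of 0 to 7 in vector cells, 0 to 39 in EVI1 cells and 0 to 27 for EVI1 under ATRA. Over all genes the falls in these runs numbered 0 to 281, 4 to 1795 and 12 to 1009. The members' medians ran from -0.88 to -0.56 in EVI1 cells, from -0.265 to -0.09 for EVI1 under DMSO and from -0.475 to -0.15 for the interaction. No median, and no called member, reversed its direction under any alternative in which it was tested. The number of arrays and, for NPM1 and the ribosomal proteins, signal near the array maximum limit the precision.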
